A study of Mus musculus with 3 samples.

Results

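Chemokine ligands are small secreted proteins that draw white blood cells along a gradient to the cells that release them. Their signals were followed in mPTECs, primary cells of the mouse kidney, as they went from the tissue into culture. The genes were chosen by name: every probe outside the array's controls whose gene name was Ccl or Cxcl with a number, or Cx3cl1, Xcl1, Ppbp or Pf4, and not a receptor gene. This gave 37 genes on 46 probes and 55 spots, of 19862 named genes and 41174 probes on the array. They were sorted by the cells each ligand is best known to attract in mouse, into 6 neutrophil attractants, 9 monocyte attractants, 16 lymphocyte attractants and 6 others.

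The cells came from kidneys of male mice of 1 month of age, and the labels name no transgene, deletion or drug treatment. The groups were cells straight from isolation (day 0) and cells kept on dishes for 1 day or for 3 days in medium with hydrocortisone, insulin, transferrin, selenium and 1% serum. Each day had 1 Cy3-labelled sample on 1 Agilent one-colour array, and the number of mice behind a sample is not given in the sources used here. Since each day rests on a single array, no test was run and no p-value is given, a difference between days had no replicate check, and every value below describes these 3 samples. The abbreviation mPTEC is used as the labels give it.

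In the kidney, tubule cells make several of these ligands after injury, and the genes are classic targets of NF-kB, a family of transcription factors switched on by cytokines and microbial products, and of interferons. Ligands with a CXC motif that act on Cxcr2 attract neutrophils, CC ligands of Ccr1 and Ccr2 attract monocytes, and ligands of Cxcr3, Ccr6 or Ccr7 attract lymphocytes and dendritic cells. Many of the genes lie side by side in clusters formed by gene duplication.

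The sequences just before the start of transcription are shown for 5 ligand genes with an NF-kB consensus match. All 5 were at least 4-fold higher on day 3 than on day 0. They are followed by those of Ppbp, which was also higher, and Cxcl15, which was lower, where no such match was found. Pf4, also higher and without such a match, is not shown. Each run is the 120 bases before the RefSeq start (build GRCm38.p6), 5′ to 3′ on the gene's strand, and capitals mark the NF-kB match.
Cxcl1: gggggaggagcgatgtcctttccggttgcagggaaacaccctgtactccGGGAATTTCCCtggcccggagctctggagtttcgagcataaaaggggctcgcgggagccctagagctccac
Cxcl2: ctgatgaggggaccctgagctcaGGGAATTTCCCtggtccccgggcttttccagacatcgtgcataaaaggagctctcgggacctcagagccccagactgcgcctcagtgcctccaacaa
Cxcl3: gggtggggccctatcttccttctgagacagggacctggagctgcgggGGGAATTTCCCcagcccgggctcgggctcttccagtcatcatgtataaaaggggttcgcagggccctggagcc
Ccl20: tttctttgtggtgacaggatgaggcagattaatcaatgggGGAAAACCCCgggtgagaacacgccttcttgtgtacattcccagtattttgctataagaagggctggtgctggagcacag
Cxcl10: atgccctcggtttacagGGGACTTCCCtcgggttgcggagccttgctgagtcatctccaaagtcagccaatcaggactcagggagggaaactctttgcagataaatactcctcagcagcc
Ppbp: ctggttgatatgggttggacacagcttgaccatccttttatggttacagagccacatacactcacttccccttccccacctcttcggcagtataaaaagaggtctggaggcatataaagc
Cxcl15: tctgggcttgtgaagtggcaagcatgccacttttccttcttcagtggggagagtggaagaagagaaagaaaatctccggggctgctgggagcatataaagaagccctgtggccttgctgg

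These windows lie at chr5:90891125-90891244 for Cxcl1, chr5:90903779-90903898 for Cxcl2, chr5:90785981-90786100 for Cxcl3, chr5:90768398-90768517 for Ppbp and chr5:90794414-90794533 for Cxcl15, all on the plus strand, and at chr5:92348890-92349009 on the minus strand for Cxcl10 and chr1:83116646-83116765 on the plus strand for Ccl20. In Cxcl1, Cxcl2 and Cxcl3 the match was the same run, GGGAATTTCCC, which holds overlapping matches on both strands. It began 71 bases before the start in Cxcl1, 97 in Cxcl2 and 73 in Cxcl3. In Ccl20 the match read on the opposite strand and began 80 bases before the start, and Cxcl10 had the match shown, 103 bases before the start, and another at 159 bases. RefSeq promoters were at hand for 27 of the 37 genes (30 promoters), and the search covered the 250 bases before the start on both strands. The NF-kB consensus matched 6 of the 30 promoters (20.0%), against 3.90% of all 32851 RefSeq promoters of the same length. An interferon element, GAAA, any 2 bases (NN) and GAAA again, matched 3 of 30 (in Ccl19, Cxcl10 and Cxcl14), against 2.98% of all, and the TATA box letters TATAAA matched 10 (33.3%), against 12.4% of all. Of the 11 genes at least 4-fold higher on day 3 than on day 0, 7 had a promoter to search and 5 of those had an NF-kB match, while of the other 26 genes 20 had a promoter to search and Ccl9 alone had a match. Cxcl1, Cxcl2 and Cxcl3, which share the same run, are neighbouring genes, so their matches are not independent instances in these counts and shares. A match is a description of the letters and not evidence of a bound site.

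Signals are given as the processed intensity of a probe over the 75th percentile of its array, so that 1 is that percentile itself. A gene with several probes is represented by its brightest one, and levels are compared between days for the same probe, never between genes. Of the 37 genes, 31 were well above background on all 3 arrays, 35 on at least 1, and Ccl11 and Ccl22 on none. By day, 32, 34 and 34 genes were well above background on days 0, 1 and 3. No ligand spot was saturated or marked as an outlier. Across the arrays, the 75th percentile was an intensity of 1184, 1509 and 1515 on days 0, 1 and 3, and 18730, 18601 and 18866 named genes gave a signal well above background. Repeat spots of a probe within an array scattered with a median log2 SD of 0.14, over 699 sets of at least 5 spots, which gives a ratio between arrays an SD of 0.20, or 1.15-fold, from spotting alone. Ccl2, with 10 spots, had signals of 0.176 ± 0.0142 on day 0, 1.81 ± 0.141 on day 1 and 37.9 ± 4.99 on day 3 (SD between spots of 1 array, not between samples).

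The label of the cells was checked against marker genes. All 8 proximal tubule markers were well above background on each day, with summed signals of 483.5, 46.6 and 10.2 on days 0, 1 and 3, and all 8 were at least 4-fold lower on both later days than on day 0. The 5 markers of the loop, distal tubule and collecting duct were likewise well above background on each day, with summed signals of 391, 91.5 and 16.6. Markers of cells that make or follow chemokines were also read. On day 0, 18730 of 19862 named genes were well above background, so that flag alone does not show that a cell type was present. The pan-leukocyte gene Ptprc gave 0.414, 0.147 and 0.138 on days 0, 1 and 3, and the 8 macrophage markers, all well above background each day, summed to 14.2, 10.8 and 17.3. That sum is carried by Lyz2 (12.03, 6.12 and 13.4), whereas 5 of the 8 were higher and 3 lower on day 1 than on day 0, with Cd68 at 0.162, 1.98 and 0.822. The endothelial markers summed to 21.3, 11.2 and 4.16, and all 5 were lower on day 3 than on day 0. The fibroblast markers summed to 4.93, 3.95 and 10.3. The collagen genes Col1a2 (1.97, 0.547 and 7.91) and Col1a1, on its brightest probe, were higher on day 3 than on day 0, and Dcn and Pdgfrb lower. For day 3 over day 0 that Col1a1 probe gave log2 2.83, and its dimmer probes gave -0.21 and 0.98. Neutrophil markers, of which 4, 3 and 4 of 5 were well above background, summed to 1.01, 0.397 and 0.247, T cell markers to 1.02, 0.689 and 0.707, B cell markers to 0.742, 0.614 and 0.560, NK cell markers to 0.338, 0.196 and 0.0856, and platelet markers to 0.236, 0.173 and 0.181. In these whole-culture samples, fewer cells of a type and less RNA per cell cannot be told apart, and the part that any of these cells had in a ligand's signal was not tested.

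After 3 days in culture, 11 of 35 chemokine ligands were at least 4-fold higher than in fresh cells and 2 were at least 4-fold lower. The same was true of 5.35% (higher) and 8.0% (lower) of all 18998 named genes, against 31.4% and 5.71% of the ligands. The median log2 ratio of the ligands was 0.42, against -0.11 for all genes. After 1 day, 5 of 35 lay at least 4-fold above day 0 and 4 lay as far below it, where 3.38% and 5.15% of all 18895 genes were, and the ligands' median log2 ratio was -0.29, against -0.11. Between the culture days, 12 of 34 exceeded their day 1 signal by 4-fold or more on day 3 and 1 fell short of it by as much, where 1.62% and 1.32% of all 18920 genes were, and the medians were 0.58 and -0.04. The 4-fold difference, a log2 ratio of 2, is a size and not a test, and 4 ligands in each comparison with day 0 had only a bound, counted where the bound itself reached 4-fold. Of the 13 calls for day 3 over day 0, those of Ccl19, Cxcl15 and Pf4 were lost with another background correction (normexp), those of Cxcl10 and Pf4 when arrays were scaled to 12 reference genes, and that of Cxcl10 with quantile normalization. Scaling to the reference genes, whose median log2 ratio was 0.84 for day 3 over day 0, turned the ligands' median to -0.37. With normexp, 4 of the 9 calls for day 1 over day 0, 6 of the 13 for day 3 over day 0 and 5 of the 13 for day 3 over day 1 moved by more than 1.5-fold.

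The ligands were then counted by the cells they attract. Of the 6 neutrophil attractants, 5 were at least 4-fold higher on day 3 than on day 0 and 1 lower (median log2 ratio 5.64). Of the 9 monocyte attractants, 2 were higher and none lower (median -0.16), and of the 15 lymphocyte attractants compared, 3 were higher and 1 lower (median -0.17). Among the 5 others compared, 1 was higher and none lower (median 0.51). After 1 day none of the 4 neutrophil attractants measured on both arrays was 4-fold higher and 1 was lower. The other 2, Cxcl3 and Cxcl5, had bounds under 4-fold and may exceed it. Cxcl5's own signals gave log2 2.18, over a day 0 signal that was not well above background. With normexp, the day 1 ratios were only log2 0.13 for Cxcl3 and 0.16 for Cxcl5. The median of the neutrophil attractants was 0.98, or 0.15 with normexp and -0.044 without the bounds. The lymphocyte attractants already held 4 that were higher and 1 lower (median -0.31). The monocyte attractants had 1 higher and 2 lower after 1 day (median -0.46), and the others had none in either direction (median 0.01). Between days 1 and 3, 5 neutrophil attractants, 5 monocyte attractants, 2 lymphocyte attractants and none of the others were at least 4-fold higher on day 3, and 1 lymphocyte attractant was lower, with medians of 4.70, 2.35, -0.003 and 0.80 in that order. Of all genes, 3.38% were higher and 5.15% lower for day 1 over day 0, and 5.35% and 8.0% for day 3 over day 0. For day 3 over day 1 the shares were 1.62% and 1.32%. The difference between classes was not tested. Under some scalings between arrays the sign changed for the monocyte median of day 3 over day 0, the lymphocyte medians of day 3 over day 0 and over day 1, and the medians of the others on day 1 and day 3 over day 0.

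**Figure D1:**
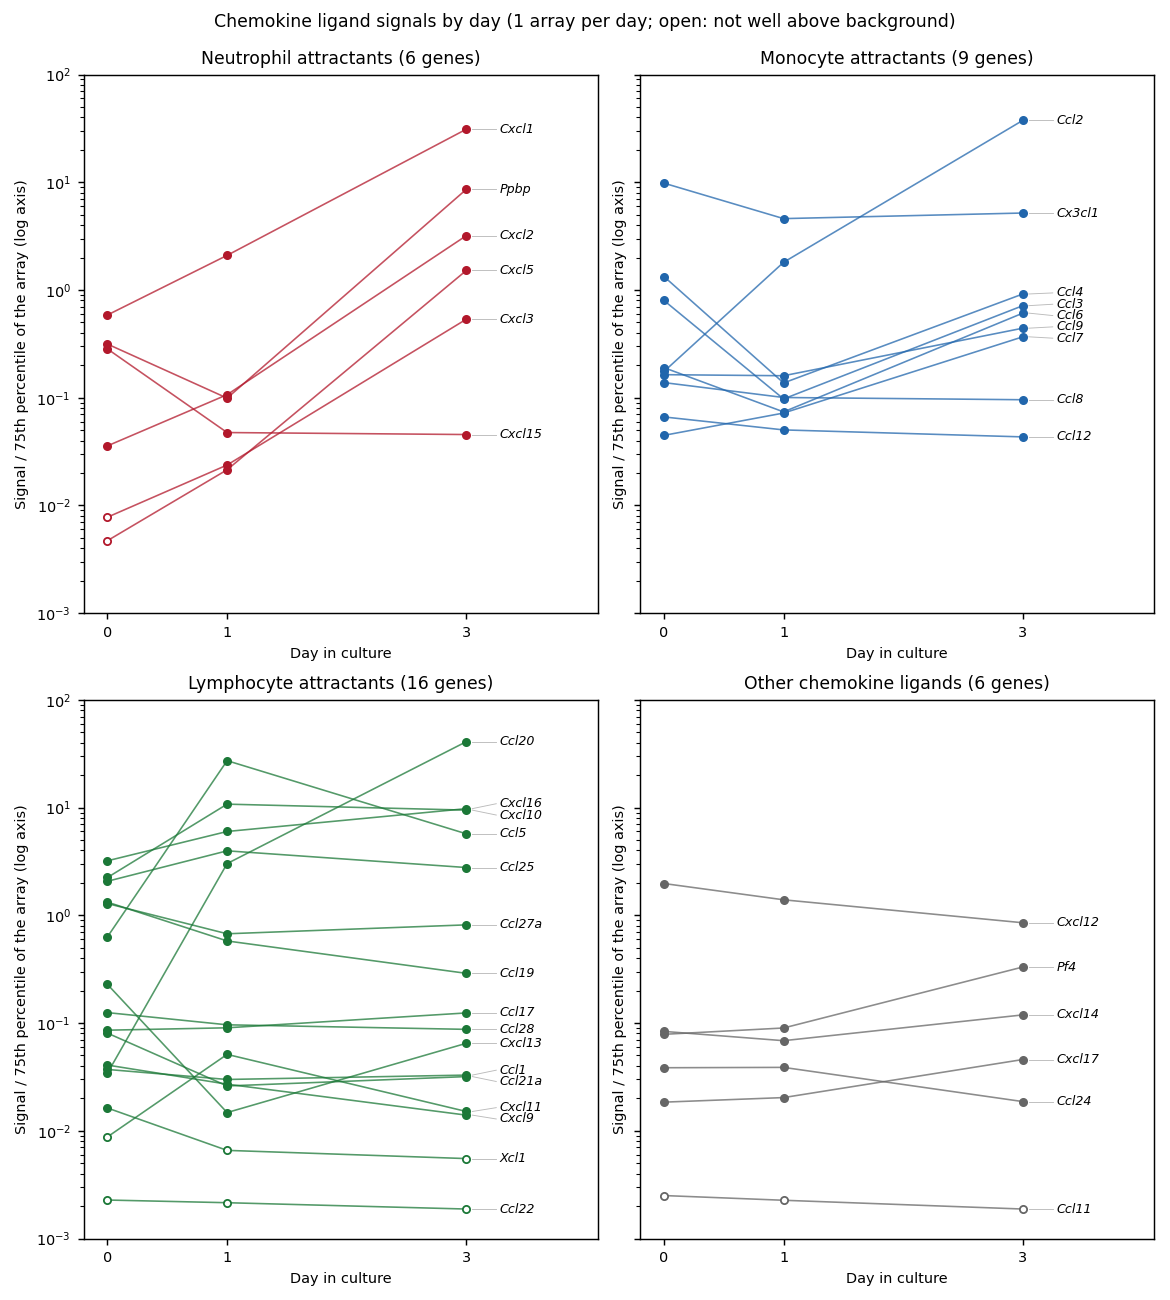
Signal of each of the 37 chemokine ligand genes over the 75th percentile of its array (log axis) against day in culture (0, 1 and 3), in 4 panels by class. Each point is 1 array, and open points are not well above background. 5 of the neutrophil attractants, Ccl2 and Ccl20 climb to their highest signals on day 3, while Ccl5 peaks at 27.2 on day 1.

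Among the neutrophil attractants, Cxcl1 (KC) is a main ligand of Cxcr2 in mouse. Its probe, at chr5:91321845-91321904 of build mm9 as the array files give it, read 0.587, 2.10 and 31.1 on days 0, 1 and 3. The day 3 signal was 53.0-fold that of day 0 (log2 5.73), and most of the climb came after day 1, with log2 1.84 for day 1 over day 0 and 3.89 for day 3 over day 1. Cxcl2 (MIP-2), which acts on the same receptor, read 0.0358, 0.107 and 3.20, which made day 3 89.3-fold day 0 (log2 6.48). Cxcl3 and Cxcl5 were not well above background in fresh cells. Cxcl3 read 0.00779, 0.0238 and 0.536, so that day 3 was at least 46.8-fold day 0 (log2 at least 5.55) and 22.6-fold day 1. Cxcl5 (LIX), a ligand that epithelial cells are known to make, read 0.00472, 0.0215 and 1.52, so that day 3 was at least 133-fold day 0 (log2 at least 7.05) and 70.8-fold day 1. For both, day 1 over day 0 was a bound too, at least 2.08-fold for Cxcl3 and at least 1.88-fold for Cxcl5. These bounds hold for the processed signal only: with normexp, day 3 over day 0 was log2 3.09 for Cxcl3, 4.63 for Cxcl5 and 5.04 for Cxcl2, and day 3 over day 1 was 2.96, 4.46 and 4.24 for the same genes.

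Ppbp, the precursor of a Cxcr2 ligand best known from platelets, took another course. It read 0.315, 0.0992 and 8.60 on days 0, 1 and 3, 3.17-fold lower on day 1 and 27.3-fold higher on day 3 than on day 0. Its highest signal was on day 3. The platelet markers, dim on each array, summed to 0.236 on day 0 and 0.181 on day 3, and the part of platelets in the Ppbp signal was not tested. Pf4, the other platelet chemokine of this region, read 0.0786, 0.0900 and 0.331, and day 3 was 4.21-fold day 0 (log2 2.08), just past the threshold. Cxcl15 (lungkine), a ligand known mainly from lung epithelium, was the exception among the neutrophil attractants: it read 0.284, 0.0475 and 0.0456, 5.97-fold lower on day 1 and 6.23-fold lower on day 3 than on day 0. Its other probe, with signals of 0.0171, 0.0210 and 0.00810 (the last not well above background), ran the other way on day 1 (log2 0.30) and was lower on day 3 (log2 of -1.08 or below), so that the size of the Cxcl15 difference depends on the probe. With normexp its brighter probe gave log2 -1.91 on day 1 and -1.98 on day 3.

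These genes are neighbours. On mm9, the probes of Cxcl5, Ppbp, Pf4, Cxcl3, Cxcl15, Cxcl1 and Cxcl2 lie within chr5:91190205-91334593, a span of 144 kb. On day 3, 6 of these 7 were at least 4-fold higher than on day 0 and Cxcl15, which lies between Cxcl3 and Cxcl1, was lower. The calls of Pf4 (normexp, reference gene scaling) and Cxcl15 (normexp, mean over probes) were lost under other processing. Of all 18998 genes, 5.35% were higher and 8.0% lower. In the cluster of Ccl2, Ccl7, Ccl11, Ccl12, Ccl8 and Ccl1 (chr11:81850650-81990395), 2 of 6 were higher, and Ccl11 had no ratio. In that of Ccl5, Ccl9, Ccl6, Ccl3 and Ccl4 (chr11:83339296-83478111), 1 of 5 was higher. Of Cxcl9, Cxcl10 and Cxcl11 (chr5:92752191-92790274), 1 of 3 was higher. In clusters of 3 or 5 genes, a count of 1 is too small to set apart from the share of all genes. Of Ccl22, Cx3cl1 and Ccl17 (chr8:97274709-97335829), Ccl22 had no ratio. Cx3cl1, on its brighter probe, and Ccl17 did not pass 4-fold in either direction. The dimmer Cx3cl1 probe was past 4-fold lower on both later days than on day 0.

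**Figure D2:**
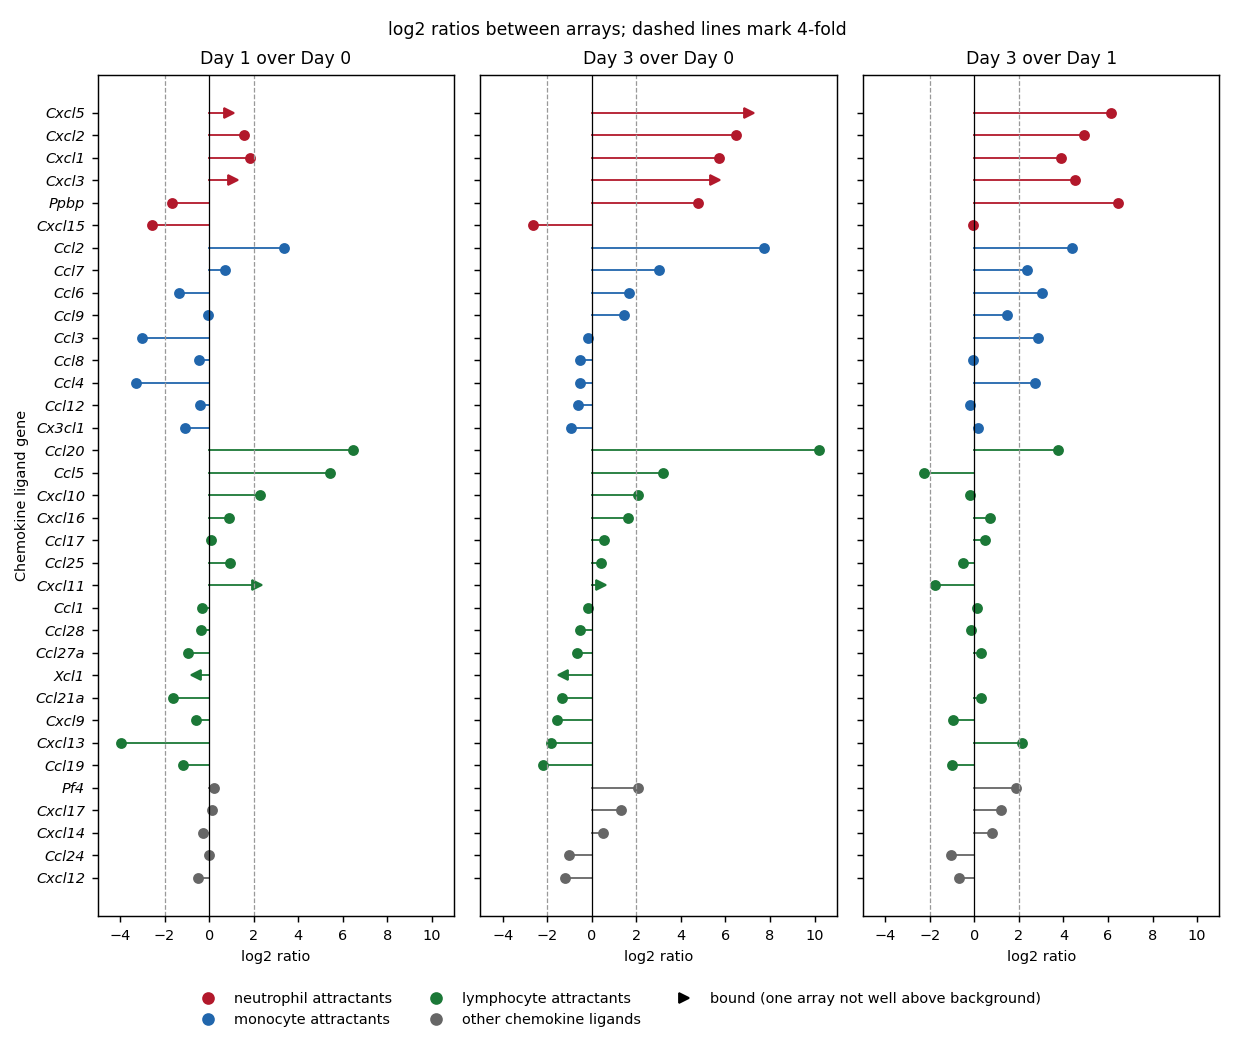
log2 ratio (horizontal axis) of each of the 35 chemokine ligand genes with a ratio, for day 1 over day 0, day 3 over day 0 and day 3 over day 1, with dashed lines at 4-fold in each direction. Points are coloured by class, and arrowheads are bounds, where 1 array was not well above background. On day 3 over day 0, 5 neutrophil attractants lie between log2 4.77 and 7.05, and Ccl20 lies farthest out at 10.22.

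Among the monocyte attractants, Ccl2 (MCP-1), the main ligand of Ccr2, had the highest ratio of its class. It read 0.175, 1.81 and 37.6 on days 0, 1 and 3 as the mean log2 value of its 10 spots, and day 1 was 10.3-fold and day 3 214-fold day 0 (log2 3.37 and 7.74). The lowest and highest of the spots did not overlap between any 2 days and the spots cover the error of 1 array each, not that between cultures. Ccl7 (MCP-3), its neighbour and another Ccr2 ligand, read 0.0448, 0.0721 and 0.368, 8.21-fold higher on day 3 than on day 0 (log2 3.04). Its other probe read 0.0145, 0.0697 and 0.608, with log2 ratios of 2.26 on day 1 and 5.39 on day 3, so the direction held on both probes and the size did not. With normexp the brighter probe gave log2 2.06 for day 3 over day 0 and 1.80 for day 3 over day 1.

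Ccl3 and Ccl4 (MIP-1 alpha and beta), which activated macrophages make among other cells, dipped on day 1. Ccl3 read 0.799, 0.0975 and 0.716, 8.20-fold lower on day 1 than on day 0, and 7.34-fold higher on day 3 than on day 1. Ccl4 read 1.33, 0.137 and 0.919, 9.72-fold lower on day 1 than on day 0, and 6.69-fold higher on day 3 than on day 1. Neither differed by more than 1.45-fold between days 3 and 0. Ccl6, a rodent ligand of Ccr1, read 0.190, 0.0739 and 0.610, below 4-fold against day 0 on either day and 8.25-fold higher on day 3 than on day 1. The macrophage markers had no common direction on day 1: 5 of 8 were higher and 3 lower than on day 0, with log2 ratios between -0.98 (Lyz2) and 3.61 (Cd68), and their part in these dips was not tested. With normexp the Ccl6 ratio of day 3 over day 1 was log2 2.35.

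The other monocyte attractants stayed within 4-fold. Ccl9, a rodent Ccr1 ligand, read 0.164, 0.160 and 0.442 (log2 1.43 for day 3 over day 0). Ccl8 read 0.138, 0.101 and 0.0959, and Ccl12 read 0.0664, 0.0503 and 0.0433. Both belong to the same family as Ccl2 and Ccl7, and lie between them and Ccl1 on chromosome 11. Cx3cl1 (fractalkine), a ligand held on the membrane of endothelial and epithelial cells, was bright throughout, at 9.81, 4.60 and 5.18, and was 2.13-fold lower on day 1 and 1.89-fold lower on day 3 than on day 0. Its dimmer probe, at 0.0819, 0.0117 and 0.0106, gave log2 ratios of -2.81 or below on day 1, where it was not well above background, and -2.95 on day 3.

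Among the lymphocyte attractants, Ccl20 (MIP-3 alpha), the ligand of Ccr6, had the highest day 3 to day 0 ratio of the 35 ligands. It read 0.0343, 3.02 and 40.9 on days 0, 1 and 3, 88.0-fold higher on day 1 and 1191-fold higher on day 3 than on day 0 (log2 6.46 and 10.22). It was also 13.5-fold higher on day 3 than on day 1, and with Ccl2 was 1 of 2 ligands that passed 4-fold at each of the 3 comparisons in the upward direction. With normexp its log2 ratios to day 0 were 4.95 and 9.14 on days 1 and 3. Ccl5 (RANTES), which attracts T cells and monocytes, peaked on day 1 instead. It read 0.632, 27.2 and 5.71, 43.1-fold higher on day 1 and 9.03-fold higher on day 3 than on day 0, and 4.77-fold lower on day 3 than on day 1. Its other probe read 0.155, 10.3 and 1.58, with the same order of days and log2 ratios of 6.05, 3.35 and -2.70. Ccl5 was the only ligand at least 4-fold lower on day 3 than on day 1.

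The 3 ligands of Cxcr3, known as interferon-induced genes, did not move alike. Cxcl10 (IP-10) read 2.24, 10.8 and 9.47, 4.79-fold higher on day 1 and 4.22-fold higher on day 3 than on day 0. Its promoter holds the NF-kB match shown above. Upstream of the window shown, it holds another NF-kB match and an interferon element beginning 213 bases before the start. Cxcl11 was not well above background in fresh cells and read 0.00878, 0.0512 and 0.0151, at least 4.47-fold higher on day 1 and at least 1.32-fold on day 3. With normexp its day 1 ratio was log2 0.37, under 4-fold. Cxcl9 read 0.0407, 0.0271 and 0.0140, 2.91-fold lower on day 3 than on day 0.

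Cxcl13, which draws B cells through Cxcr5, read 0.228, 0.0148 and 0.0649, 15.5-fold lower on day 1 than on day 0 and 4.40-fold higher on day 3 than on day 1. Neither difference reached 4-fold with normexp (log2 -1.997 and 0.90), nor the second with scaling to the reference genes (log2 1.83). Ccl19, a ligand of Ccr7 that guides T cells and dendritic cells to lymph nodes, read 1.33, 0.578 and 0.289, 4.58-fold lower on day 3 than on day 0, but its other probe gave log2 ratios of only -0.53 and -0.74 on days 1 and 3. Ccl21a, the other Ccr7 ligand, read 0.0806, 0.0261 and 0.0319. Cxcl16, a membrane-held ligand of Cxcr6, read 3.21, 6.0 and 9.77 (log2 1.61 for day 3 over day 0, and 0.52 on its other probe). Ccl25, a ligand of Ccr9 known from thymus and gut, read 2.07, 3.97 and 2.78. Ccl27a and Ccl28, ligands of Ccr10, read 1.29, 0.674 and 0.815, and 0.125, 0.0963 and 0.0874. Ccl17, a Ccr4 ligand, read 0.0859, 0.0903 and 0.124, and Ccl1, a Ccr8 ligand, read 0.0371, 0.0300 and 0.0329. Xcl1, a ligand made by T and NK cells, was well above background on day 0 alone, at 0.0163, and read 0.00658 and 0.00552 on days 1 and 3.

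Of the remaining ligands, Cxcl12 (SDF-1), the Cxcr4 ligand of stromal cells, read 1.97, 1.39 and 0.853, 2.31-fold lower on day 3 than on day 0. Its dimmer probe, at 0.479, 0.170 and 0.0525, gave a larger difference, log2 -3.19, past 4-fold. Cxcl14, a ligand of epithelial tissues, read 0.0837, 0.0686 and 0.119. Cxcl17, a mucosal ligand, read 0.0184, 0.0203 and 0.0459 (log2 1.31 for day 3 over day 0). Ccl24, an eosinophil attractant and ligand of Ccr3, read 0.0385, 0.0388 and 0.0187 and was 2.06-fold lower on day 3 than on day 0.

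Where 9 ligands had 2 probes, the pair could be compared. The log2 ratios of a pair had opposite signs for 1 gene on day 1 over day 0 (Cxcl15) and for none on day 3 over day 0, and differed by more than 2-fold for 3 and for 6 genes. Ccl5 kept its call on both probes in both comparisons, Ccl7 kept that of day 3, and the 4-fold calls of Ccl19 and Cxcl15 on day 3 rested on 1 probe each. Over all genes with several probes, the SD between the probes of a gene had a median of 0.34 for day 1 over day 0 and 0.47 for day 3 over day 0, on the log2 scale.

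**Figure D3:**
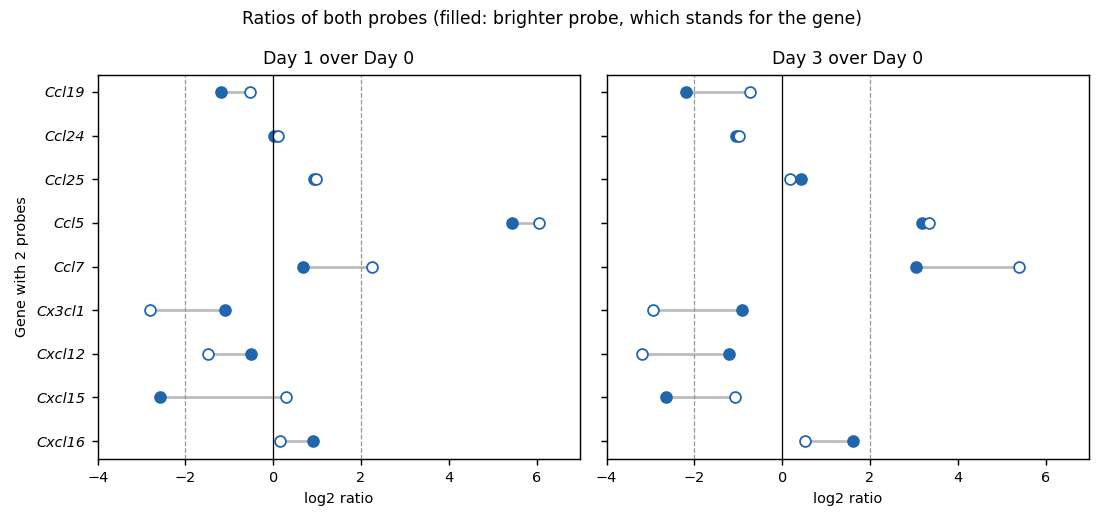
log2 ratios (horizontal axis) of both probes of the 9 chemokine ligand genes that had 2, for day 1 over day 0 and day 3 over day 0. Filled points are the brighter probe, which represents the gene, open points the dimmer one, and dashed lines 4-fold; the open points of Cx3cl1 on day 1 and Cxcl15 on day 3 are bounds. The widest gap is that of Cxcl15 on day 1, from -2.58 to 0.30.

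The genes around the ligands were counted from lists of the same pathway. Of 18 chemokine receptor genes compared, none was at least 4-fold higher on day 1 or day 3 than on day 0, where 3.38% and 5.35% of all genes were, so a count of 0 is near that share. Lower were 1 of 18 on day 1 and 2 of 18 on day 3, against 5.15% and 8.0% of all genes. Ccr2, the receptor of Ccl2 and Ccl7, read 0.0451 on day 0 and was not well above background later, a log2 ratio of -2.08 or below on day 1 and -2.75 or below on day 3. The other Ccr2 probe was not well above background on any array, so these ratios rest on 1 dim probe. Cxcr5, the receptor of Cxcl13, read 0.0481, 0.0405 and 0.0103 (log2 -2.23 on day 3). None of the 5 atypical receptors, which bind chemokines without drawing cells, passed 4-fold on either day.

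The list of inducers of chemokine genes held cytokines, sensors, cytokine receptors and the adaptor Myd88. Of 14 compared, 1 was at least 4-fold higher and 1 lower on day 1, and 3 were higher and none lower on day 3. Of all genes 3.38% were higher and 5.15% lower on day 1, and 5.35% and 8.0% on day 3, so the day 1 counts are near the share of all genes. Tlr4, the sensor of bacterial lipopolysaccharide, read 0.212, 1.17 and 0.697 (log2 2.46 on day 1). Il1b, the inflammatory cytokine, read 0.840, 0.0308 and 0.293 (log2 -4.77 on day 1). On day 3, Tnf, a main activator of NF-kB, read 1.20, against 0.210 on day 0 (log2 2.51). Tlr2, a sensor of bacterial lipopeptides, read 2.50, against 0.451 (log2 2.47). The cytokine Il6 read 0.526, against 0.119 (log2 2.14). Il1a, within 4-fold on its brighter probe (log2 -0.44 on day 3), had a dimmer probe well above background on day 3 alone. That dimmer probe gave a bound of at least log2 2.44 against day 0.

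Among 16 transcription factors and feedback regulators of chemokine genes, 3 were higher (18.8%) and 4 lower (25.0%) on each day, against 3.38% and 5.15% of all genes on day 1 and 5.35% and 8.0% on day 3. The alternative NF-kB subunits Nfkb2 (0.942, 4.56 and 4.52) and Relb (1.01, 5.16 and 4.79) were higher on both days, with log2 ratios of 2.28 and 2.36 on day 1. Irf7, an interferon regulatory factor, was higher on day 1 (log2 2.57), and Tnfaip3, an NF-kB feedback inhibitor, on day 3 (log2 2.48). Lower on both days were Fos (43.3, 0.416 and 1.1), Jun (17.6, 2.35 and 2.32), which form AP-1, Irf1 (48.2, 6.02 and 6.46), and Zfp36 (29.9, 2.07 and 2.30), which promotes decay of cytokine and chemokine mRNAs. Of 9 genes that present or cut chemokines, Dpp4, a protease that trims them, was lower on both days (log2 -2.74 and -2.36), and the proteoglycan Sdc1 was higher on day 3 (log2 2.38). With 1 of 9 in each direction on day 3, these counts are near the shares of all genes, 5.35% higher and 8.0% lower.

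**Figure D4:**
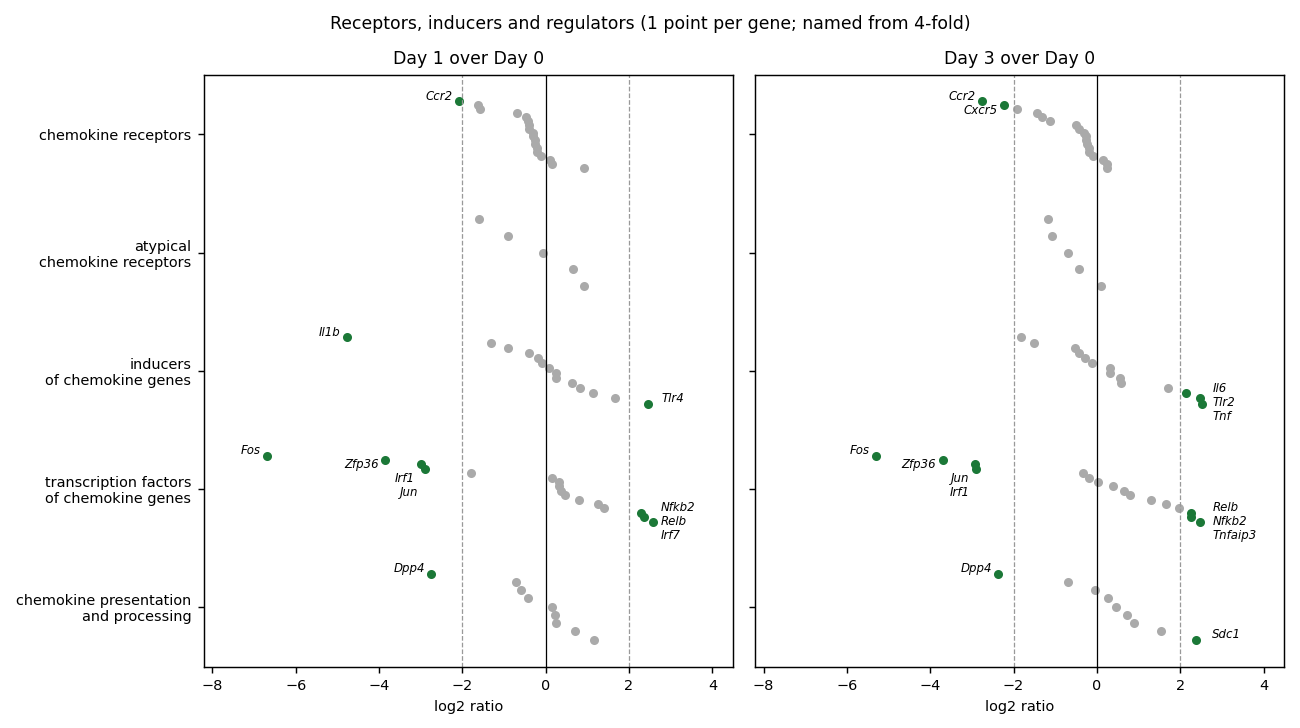
log2 ratio (horizontal axis) of chemokine receptors, atypical receptors, inducers, transcription factors and presentation or processing genes, for day 1 over day 0 and day 3 over day 0. Each point is 1 gene, green and named from 4-fold (dashed lines), and the points of Ccr2 and Ackr4 are bounds. No receptor lies beyond 4-fold higher, and Fos lies farthest out, at -6.70 on day 1.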

How the data were processed

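RNA of the 3 samples was measured on 3 Agilent arrays on 1 slide, 1 array per day. Per the file headers, Feature Extraction 10.5.1.1 made the deposited spot intensities, while the submitters' processing notes name version 9.1. The processed signal is an intensity with background subtracted, and 2 arrays, but not that of day 3, had a multiplicative trend correction. Flags of other kind, set to 0 or 1 per the file headers, mark spots well above background, outliers and saturated spots. The authors also deposited a table of ratios, the processed signal over the array's 75th percentile, and on each array the 43379 tabled values equalled it within 0.001.

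Here the log2 processed signal minus that of the 75th percentile of the non-control spots was used. Outlier spots (94, 102 and 85 on days 0, 1 and 3) were left out, spots of a probe were averaged, and a gene was represented by its probe with the highest mean. Probes were named through the RefSeq table of mouse genes, and the ligand probes kept the array's gene names. A gene was compared if either array showed it well above background. Where the other array did not, the ratio is a bound against the higher of its own signal there and the lowest signal well above background, which was 1.14%, 1.06% and 0.669% of the 75th percentile on days 0, 1 and 3. Arrays give no counts, and their number limits the precision. All ligand genes well above background on at least 1 array are given with values, and genes of the other lists only from 4-fold. The members, classes and lists were chosen with earlier results of these data known. Promoters came from RefSeq (GRCm38.p6), and probe positions (mm9) from the array files. The ratios and bounds were tested on simulated data in which the flag was a fixed cut on the signal. On the arrays some unflagged signals lay above the lowest flagged one, so the test does not show how the bounds hold there. Alternatives were normexp background correction (limma 3.58.1, offset 50), median centring, quantile normalization, scaling to reference genes or spike-ins, other treatment of dim probes, the mean over probes, the deposited ratios and a 2-fold threshold. Python 3.11.15 and R 4.3.3 were used.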

Additional observations from a re-analysis of the deposited data

How the results depend on the processing

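None of the calls reversed under any alternative, but several alternatives could not have reversed one. Median centring and scaling to reference genes or spike-ins shift all ratios of a comparison alike, by log2 0.84 at most, against a threshold of 2. The deposited ratios equal the signals used here within 0.001. The count of ligands at least 4-fold higher on day 3 stayed within 1.5 times of 11 against day 0 and of 12 against day 1. Of the 9 calls for day 1 over day 0, 6 remained with normexp (lost were Cxcl11, Cxcl13 and Cxcl15), 7 with reference gene scaling (Cxcl10 and Cxcl11) and 8 with the mean over probes (Cxcl15). Of the 13 for day 3 over day 0, 10 remained with normexp, 11 with reference gene scaling, 11 with the mean over probes (lost were Ccl19 and Cxcl15), and 12 each with median centring and spike-in scaling (Ccl19) and with quantile normalization (Cxcl10). Of the 13 for day 3 over day 1, 11 remained with normexp (Ccl7 and Cxcl13), 12 with reference gene scaling (Cxcl13) and 12 with spike-in scaling (Ccl5). The cause was not tested.

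For day 1 over day 0, 3 ligands were at least 4-fold higher with reference gene scaling, 2 were lower with normexp, and 8 were higher and 9 lower at a 2-fold threshold. Against 2 lower for day 3 over day 0, there were 0 with normexp, 1 each with median centring, spike-in scaling and the mean over probes, 7 with reference gene scaling and 8 at 2-fold. Against 1 lower for day 3 over day 1, there were 2 with reference gene scaling, 0 with spike-in scaling and 3 at 2-fold.

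The ligands' median log2 ratio for day 1 over day 0 was -0.076 with median centring, -0.046 with quantile normalization and -0.82 with reference gene scaling. For day 3 over day 0 it was 0.14 with normexp, 0.73 with median centring, 0.86 with quantile normalization, 0.91 with spike-in scaling and, reversed, -0.37 with reference gene scaling. For day 3 over day 1 it was 0.30 with normexp, 0.28 with reference gene scaling, 0.88 with spike-in scaling and 0.29 with no filter on dim probes. Class medians that changed sign were, for day 1 over day 0, the neutrophil attractants (-0.044 over genes well above background on both arrays) and the others (-0.16 with normexp, -0.52 with reference gene scaling and -0.067 with no filter). For day 3 over day 0 they were the monocyte attractants (0.15 with median centring, 0.32 with spike-in scaling), the lymphocyte attractants (0.13 with median centring, 0.25 with quantile normalization, 0.31 with spike-in scaling) and the others (-0.33 with reference gene scaling). For day 3 over day 1 the lymphocyte attractants gave 0.10 with median centring, 0.13 with quantile normalization and 0.30 with spike-in scaling.

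Relative to the 75th percentile, the median of all spots shifted by -0.21 on day 1 and -0.31 on day 3 against day 0, the 12 reference genes by 0.53 and 0.84, and the 9 spike-ins by -0.18 and -0.48. Of all genes called at 4-fold, 39.6% were higher on day 1 over day 0 and 40.1% on day 3 over day 0, against 51.7% and 55.9% with median centring, 49.8% and 64.5% with spike-in scaling and 16.8% and 12.2% with reference gene scaling. For day 3 over day 1 the share was 55.2%, against 74.1% with spike-in scaling and 33.1% with reference gene scaling. No paired analysis was possible because each day had 1 array, and for the same reason no replicate could be left out. The slide was not fitted as a block because the 3 arrays shared 1 slide.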
